A study of Mus musculus with 28 samples.

Results

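Single neurons drawn by pipette from hippocampal tissue were set against bulk hippocampus of the same mouse strain. The libraries were chosen by the source name in the labels, which gave 6 of the 28 libraries of the series: 3 single neurons and 3 pieces of bulk tissue. All 28661 counted features entered the comparison, and none was chosen by its values. The series samples cortical and hippocampal neurons by pipette or by TIVA, a light-activated tag that captures the RNA of a chosen cell.

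Each pipette neuron was a single cell of hippocampal tissue from C57BL/6 mice, labelled as a neuron and untreated. Each bulk library was hippocampal tissue from C57BL/6 mice, also untreated, with the cell type given as tissue. For both groups the mice were 8 to 10 days old, and acute coronal slices were kept in artificial cerebrospinal fluid for 90 min. Both kinds of RNA were amplified linearly, in 3 rounds of in vitro transcription. The labels name no animal, so the neurons may share one, and each group counts as 1 sample. For this reason p-values are left out, and differences stand beside the spread over libraries. The extraction text of the pipette neurons describes photolysis and TIVA capture in the CA1 field, and their titles carry the word Tiva, so their collection by pipette rests on the source name. Amount of starting RNA and kind of sample went together in this design and cannot be told apart.

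The hippocampus is a cortical structure whose principal excitatory cells are the pyramidal neurons of the CA fields and the granule cells of the dentate gyrus, with inhibitory interneurons among them. A bulk piece also holds astrocytes, cells of the oligodendrocyte lineage, microglia and vessel cells, so its RNA is an average over many cell types. A single neuron holds the transcripts of its own type at the moment of collection. In bulk tissue, fewer cells of a type and less RNA per cell cannot be told apart.

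The features carry UCSC known-gene identifiers, which the files do not pair with gene symbols. None of the reference tables used here lists them: 0 of 55419 identifiers matched. The label of the cells could therefore not be checked against neuronal or glial marker genes, no sequence is shown, and only 2 features in each direction are named.

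Neurons 1, 2 and 3 had 7.83, 6.64 and 11.6 M reads (M stands for 1000000) assigned to features, against 26.7, 59.0 and 31.7 M in bulk libraries 1, 2 and 3. Reads outside features were 18.9%, 30.3% and 15.8% of all counted reads in the neurons and 30.5%, 21.1% and 23.6% in bulk tissue. Reads that touched several features were 2.88% to 3.50% in neurons and 4.68% to 8.88% in bulk tissue. Bulk library 1 stood apart from the other bulk libraries. It gave 10.5% of its reads to its single most abundant feature, against 2.39% in bulk library 2 and 1.50% in bulk library 3. The counts, overlaps and means that it bears on most are also given without it.

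At the same number of reads a neuron held far fewer features than bulk hippocampus. With every library thinned to 6.64 M reads, 9297, 9472 and 9989 features had 1 or more reads in neurons 1, 2 and 3, against 16849, 17278 and 16696 in bulk libraries 1, 2 and 3. The medians differed by −7377, against an SD of 360 over neurons and 302 over bulk libraries (n = 3 each). All neurons lay below all bulk libraries. Without bulk library 1 the medians differed by −7515.

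The gap lay mostly in features of low level. At 50 CPM or more (CPM, reads of a feature per M assigned reads of the library) neurons 1, 2 and 3 held 3191, 3199 and 3269 features, against 3047, 3776 and 4114 in the bulk libraries. These ranges overlapped only because bulk library 1 lay below all neurons. Without it, all neurons lay below both remaining bulk libraries at this level too. At 10 CPM or more the neurons held 5354 to 6084 features and the bulk libraries 7989 to 9319, with no overlap.

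**Figure D1:**
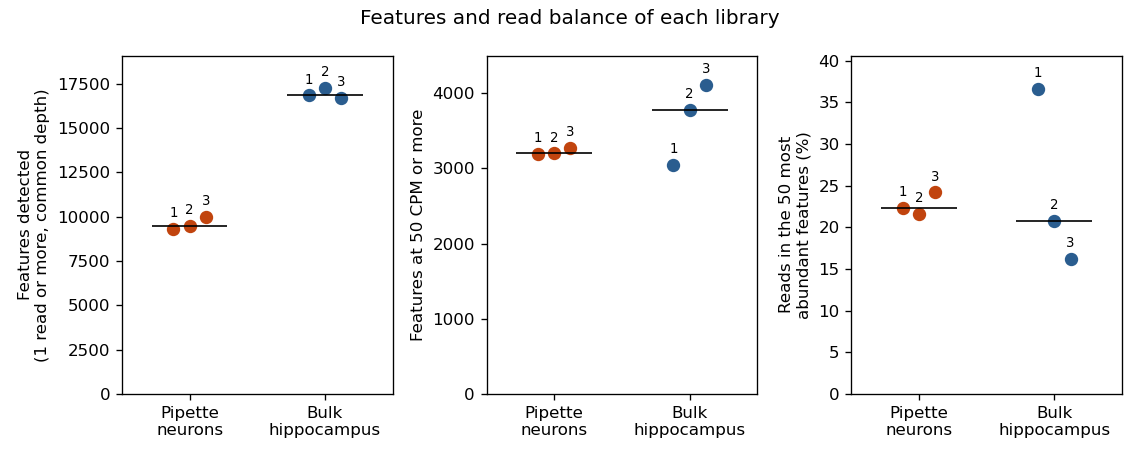
Features with 1 or more reads at 6.64 M reads (left), features at 50 CPM or more (middle) and percent of reads in the 50 most abundant features (right), with 1 numbered point per library and a line at the group median. The neurons lie below the bulk libraries on the left, at 9297 to 9989 against 16696 to 17278, and inside the bulk range in the other panels. In those panels bulk library 1 sets 1 end of the range, and without it the neurons lie outside.

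Reads were spread over features more evenly in some bulk libraries than in the neurons. The 50 most abundant features took 22.3%, 21.6% and 24.2% of reads in neurons 1, 2 and 3, against 36.6%, 20.8% and 16.2% in bulk libraries 1, 2 and 3. The neuron values lay inside the bulk range. Without bulk library 1 all neurons were above both remaining bulk libraries. The medians differed by 1.57 percentage points with all libraries, by −4.08 without bulk library 2 and by −6.35 without bulk library 3, so the direction rested on which bulk libraries were used. The number of features that together held 50% of the reads was 413, 395 and 402 in the neurons and 223, 616 and 768 in bulk tissue.

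The leading features were largely shared. Of the 50 features with the highest mean level in neurons, 33 were also among the 50 highest in bulk tissue, which is 66% of either list. Among the 500 highest the share was 61%. Without bulk library 1 these shares were 68% and 63%. The feature with the highest neuron mean took 4.21%, 2.86% and 5.19% of reads in neurons 1, 2 and 3, against 0.714%, 1.44% and 0.645% in the bulk libraries. It ranked 6 by bulk mean, and 4 without bulk library 1. The feature with the highest bulk mean took 0.829%, 1.72% and 0.799% of reads in the neurons, against 10.5%, 2.39% and 1.50% in bulk tissue, and ranked 3 by neuron mean. Its mean over bulk libraries was 4.79%, and 1.95% without bulk library 1, where it was still the highest.

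Whether a neuron held a feature went with the level of that feature in the tissue. Features were sorted by mean bulk level, and a feature was counted as held from 1 read in the thinned library. Of the 3156 features at 1 to 5 CPM in bulk tissue, 6.40% were held by all 3 neurons and 52.1% by none. Of the 2241 features at 10 to 20 CPM, 41.8% were held by all neurons and 10.5% by none. The share held by all neurons was 70.7% at 20 to 50 CPM (3003 features), 89.9% at 50 to 100 CPM (1758 features) and 97.6% at 100 to 500 CPM (1717 features).

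The 227 features at 500 CPM or more in bulk tissue were all held by all 3 neurons. With bulk library 1 left out, the share at 20 to 50 CPM was 67.6%. A single pipette neuron held a median of 84.1% of the features at 20 to 50 CPM (83.8% to 88.3%, n = 3). The tissue neurons captured by TIVA held 86.6% of them (81.9% to 92.8%, n = 5), so their range included that of the pipette neurons.

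**Figure D2:**
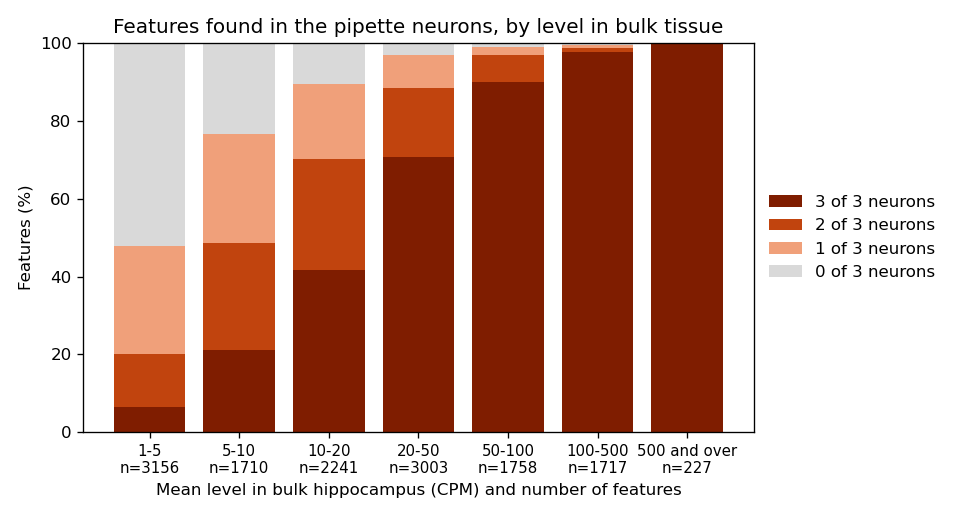
Percent of features held by 3, 2, 1 or 0 of the 3 pipette neurons (vertical axis, 1 or more reads at 6.64 M reads), for classes of mean level in bulk hippocampus (horizontal axis, CPM). The share held by all neurons is 6.40% in the lowest class and 100% in the highest.

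In the other direction the tissue held nearly everything that a neuron held. Of the 1644 features with a mean of 1 to 5 CPM in neurons, 97.3% were held by all 3 bulk libraries and 0.304% by none. Of the 2138 features at 20 to 50 CPM in neurons, 99.6% were held by all bulk libraries. Over all levels, 12164 features were held by at least 1 neuron, and 99.1% of them by at least 1 bulk library. The 114 held by a neuron and by no bulk library had a median of 0.0573 CPM as a mean over the 3 neurons.

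Adding neurons recovered part of what each of them lacked. A pair of neurons together held 11117 to 11450 features, and all 3 together held 12164. These still lay below the 16696 of the lowest single bulk library. Features held by all 3 neurons numbered 7134, or 58.6% of those held by any, against 15302 or 82.0% in bulk tissue. Of the 15302 features held by all bulk libraries, 23.3% were held by no neuron, and these had a median of 1.62 CPM in bulk tissue.

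Some abundant tissue features were nearly absent from the neurons. The 3 bulk libraries had 2570 features in common at 50 CPM or more, of which 4.86% were below 1 CPM in neuron 1, 5.95% in neuron 2 and 2.68% in neuron 3. Without bulk library 1, which leaves 3435 features, the median over neurons was 8.41%. In all, 255 features were below 1 CPM in at least 1 neuron and 25, or 0.973%, in all 3. The last share was 1.72% without bulk library 1, 1.48% without neuron 2 and 1.67% without neuron 3.

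Of those 25 features, 8 had no read in any neuron. The 25 had a median of 94.1 CPM in bulk tissue, against 143 CPM over all 2570. The one highest in bulk tissue, singled out after its values were seen, had 0.766, 0 and 0 CPM in neurons 1, 2 and 3, against 206, 266 and 212 CPM in bulk libraries 1, 2 and 3. In TIVA neurons from tissue its median was 0 and its highest value 0.528 CPM. The next of them had 0, 0 and 0.172 CPM in the pipette neurons, against 146, 264 and 165 CPM in bulk tissue, and its TIVA neurons ran from 0.0347 to 529 CPM. A count of 0 in neurons 1, 2 and 3 allows up to 0.383, 0.452 and 0.258 CPM, for counting error only.

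Features below 1 CPM in a neuron held a small part of the tissue's reads. Those below 1 CPM in neuron 1 took a mean of 9.39% of bulk reads (7.35% to 11.0% over bulk libraries), those of neuron 2 took 9.81% and those of neuron 3 took 6.38%. Features below 1 CPM in all neurons took 3.16% (2.49% to 3.74%), and 3.49% without bulk library 1. In the reverse direction, features below 1 CPM in a bulk library took means of 0.163% to 0.330% of neuron reads.

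Levels were compared as the mean of log2(CPM + 10) in neurons minus that in bulk tissue. This scale understates the change of features of low level. It covered 9967 features with an average of 5 CPM or more over both group means. The median difference was −0.54, with quartiles at −1.14 and 0.13, and 70.5% of the measured features had a lower value in neurons. This shift rested on the scaling: the median was −0.15 with TMM factors, −0.074 with DESeq2 size factors and −0.30 for summed counts, and 55.8%, 52.9% and 60.6% of features were lower under them. Each neuron by itself gave a median of −0.78, −0.80 and −0.53 against the bulk mean. CPM sum to the same total in every library, so lower values of most features go with higher values of others.

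A feature was called where the difference was 4-fold or more on that scale and no neuron overlapped any bulk library. By this rule 65 of the 9967 measured features, or 0.652%, were higher in neurons, and 480, or 4.82%, were lower. The balance of both directions moved with the scaling, because the median of all features was not 0. With TMM factors 184 were higher and 265 lower, and with DESeq2 size factors 223 were higher and 238 lower. With differences taken from the median of all features 174 were higher and 170 lower, and with the 50 most abundant features left out of the library totals 67 were higher and 742 lower. Calls in the higher direction thus made up 11.9% by library total, 41.0% with TMM, 48.4% with DESeq2, 50.6% from the median and 8.28% outside the 50 most abundant. Without bulk library 1 the rule called 57 features higher and 698 lower, 49 and 448 of them among the calls made with all libraries. Leaving out a neuron gave more calls: 126 were higher and 607 lower without neuron 1, 121 and 605 without neuron 2, and 138 and 812 without neuron 3. With fewer libraries in a group, the condition of no overlap is easier to meet, and the group mean itself changes. With overlap allowed and all libraries kept, 68 were higher and 529 lower. The cause of the larger counts was not tested. With 1 CPM in place of 10 added before the logarithm, 102 were higher and 2292 lower.

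**Figure D3:**
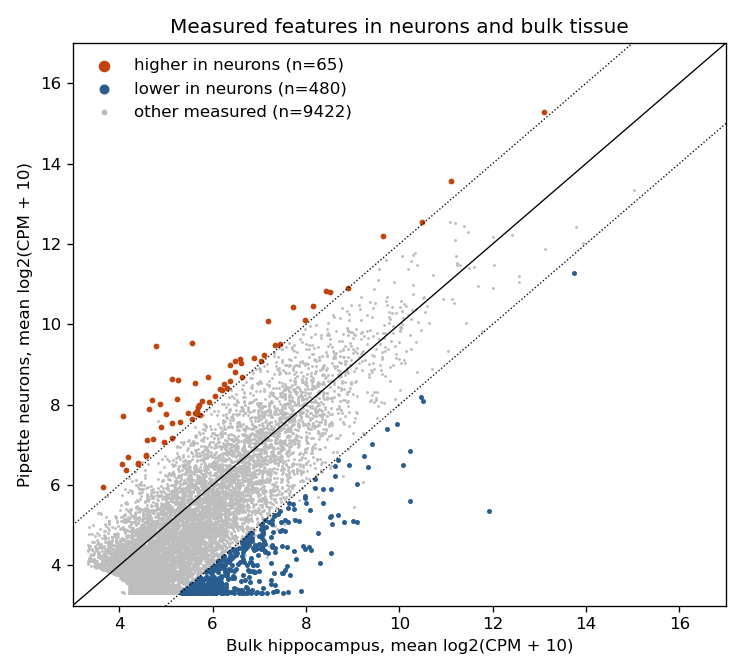
Mean log2(CPM + 10) in the 3 pipette neurons (vertical axis) against the 3 bulk libraries (horizontal axis), with 1 point per measured feature, a solid line of equal level and dotted lines at 4-fold. The 480 features called lower have a median of 3.19 CPM in neurons, and the 65 called higher have a median of 349 CPM. Of the 480, the 152 below 1 CPM in all neurons lie near the floor of the vertical axis. At 50 CPM or more in every neuron are 12 of the 480.

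Most of the features called lower were below 1 CPM in at least 1 neuron. The rule itself picks features of low level in neurons. The same share over all measured features is not given here, so these counts do not set the called features apart. Of the 480, 152 were below 1 CPM in all 3 neurons, 111 in 2 neurons and 102 in 1 neuron. The remaining 115 were at 1 CPM or more in every neuron. Their median level was 3.19 CPM in neurons and 68.3 CPM in bulk tissue. Together they took 0.791%, 0.898% and 0.859% of the reads of neurons 1, 2 and 3, against 8.56%, 7.12% and 7.17% of the reads of the bulk libraries. The counts and sums of these 480 describe features picked for their difference and are no evidence for it.

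The features called higher were mostly abundant in neurons and present in the tissue as well. With 10 CPM added before the logarithm, the rule itself picks features of high level in neurons. Of the 65, 57 were at 50 CPM or more in every neuron, beside 1556 of all 9967 measured features. In each of the bulk libraries, 63 of the 65 reached 1 CPM. Presence in the tissue does not set them apart, since of all 1556 features at 50 CPM or more in every neuron only 2, or 0.129%, were below 1 CPM in any bulk library. Their median level was 349 CPM in neurons and 45.4 CPM in bulk tissue. Together they took 9.71%, 8.16% and 10.6% of the reads of neurons 1, 2 and 3, against 1.41%, 2.56% and 1.65% in bulk tissue. These sums describe features picked for their difference and are no evidence for it.

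The widest difference upward was that of uc007lvn.1. It stood at 956, 695 and 498 CPM in neurons 1, 2 and 3, against 19.9, 14.0 and 19.4 CPM in bulk libraries 1, 2 and 3. The lowest neuron was 24.99-fold above the highest bulk library, and both groups were narrow. Its mean was 716 ± 230 CPM in neurons and 17.8 ± 3.25 CPM in bulk tissue (SD, n = 3 each), 40.3-fold higher and a log2 difference of 4.67, or 5.20 above the median of all measured features. Summed reads gave 685 CPM in neurons (exact Poisson 95% interval 675 to 695) and 16.8 CPM in bulk tissue (16.1 to 17.6).

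The same feature was at 318, 438, 263, 373 and 31.8 CPM in the 5 TIVA neurons of hippocampal tissue. In cultured hippocampal neurons drawn by pipette it was at 256, 278 and 328 CPM. All of these values were above the highest bulk library, and all lay below the lowest pipette neuron of tissue.

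The second feature upward joins the identifiers uc007war.1:uc011ztn.1:uc007wat.1:uc007was.1. It had 750, 408 and 1245 CPM in neurons 1, 2 and 3, against 16.9, 38.7 and 70.4 CPM in the bulk libraries. The lowest neuron was 5.79-fold above the highest bulk library, while the neurons themselves differed by up to 3.06-fold and the bulk libraries by up to 4.16-fold. The means were 801 ± 421 CPM in neurons and 42.0 ± 26.9 CPM in bulk tissue (SD, n = 3 each), 19.1-fold higher and a log2 difference of 3.96.

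This feature was uneven in other neurons. The 5 TIVA neurons of tissue had 165, 232, 407, 83.2 and 0.264 CPM, and cultured pipette neurons had 1.21, 0.796 and 3.98 CPM. The cultured neurons thus lay below all bulk libraries, and the TIVA neurons reached from below to above them. Summed reads were 884 CPM in pipette neurons (872 to 895) and 42.3 CPM in bulk tissue (41.1 to 43.5).

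In the other direction the widest difference was that of uc007fct.1. It had 65.9, 24.7 and 16.4 CPM in neurons 1, 2 and 3, against 10252, 2792 and 1980.2 CPM in bulk libraries 1, 2 and 3. The lowest bulk library was 30.1-fold above the highest neuron. Bulk library 1 set the bulk mean: the means were 35.7 ± 26.5 CPM in neurons and 5008 ± 4559.6 CPM in bulk tissue (SD, n = 3 each), and the bulk mean was 2386 CPM without it. The log2 difference was −6.55, or −6.01 from the median of all measured features, and −5.84 without bulk library 1.

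Every neuron still held reads of this feature, with 516, 164 and 191 reads. The 5 TIVA neurons had 11.6, 297, 229, 884 and 9.21 CPM, and the cultured pipette neurons 50.5, 35.0 and 50.2 CPM. All 11 of these neurons thus lay below the lowest bulk library.

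The second feature downward joins uc011wwl.1:uc007dqc.1:uc007dqd.1. It had 13.1, 39.8 and 90.2 CPM in neurons 1, 2 and 3, against 1767, 752 and 1261 CPM in bulk tissue. Here the neurons differed more among themselves, by up to 6.86-fold, than the bulk libraries did, by up to 2.35-fold. The lowest bulk library was still 8.34-fold above the highest neuron, and the log2 difference was −4.62, or −4.08 from the median of all measured features. TIVA neurons of tissue had 42.6, 106, 70.7, 215 and 63.2 CPM, and cultured pipette neurons 50.7, 71.4 and 6.87 CPM, all below the bulk libraries.

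**Figure D4:**
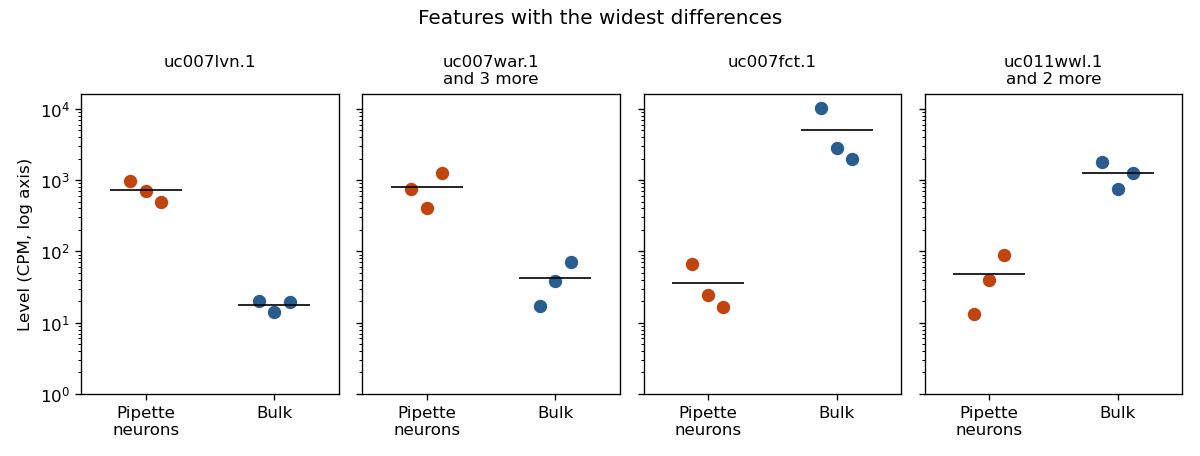
Level in CPM (log axis) of the 4 named features in each pipette neuron and each bulk library, with 1 point per library, replicates 1 to 3 left to right, and a line at the group mean. The first 2 features are higher in every neuron and the last 2 lower in every neuron, and uc007fct.1 shows the high bulk library 1 at 10252 CPM.

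The neurons differed from each other far more than the bulk libraries did. Over the 9967 measured features the median SD of log2(CPM + 10) was 0.86 over neurons (quartiles 0.43 and 1.37) and 0.36 over bulk libraries (0.22 and 0.54). Without bulk library 1 the bulk value was 0.21. On this scale, where the added 10 CPM narrows the spread of low features, neurons spread most at middle levels and bulk tissue at the highest. Sorted by their own group mean, features at 50 to 100 CPM had a median SD of 1.40 in neurons and 0.43 in bulk tissue. At 500 CPM or more it was 0.53 in neurons (319 features) and 0.59 in bulk tissue (227 features). The bulk values by level, here and below, include bulk library 1 and are not given without it.

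The share of features that varied by 4-fold or more among neurons was largest at 5 to 10 CPM. There it was 91.0% among neurons and 13.7% among bulk libraries. At 1 to 5 CPM it was 73.6% among neurons. At 500 CPM or more, 14.7% of features varied by 4-fold or more among neurons and 16.3% among bulk libraries. At 20 to 50 CPM these shares were 79.9% in neurons and 8.52% in bulk tissue. In these libraries 1 read was worth 0.0859 to 0.151 CPM in neurons.

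**Figure D5:**
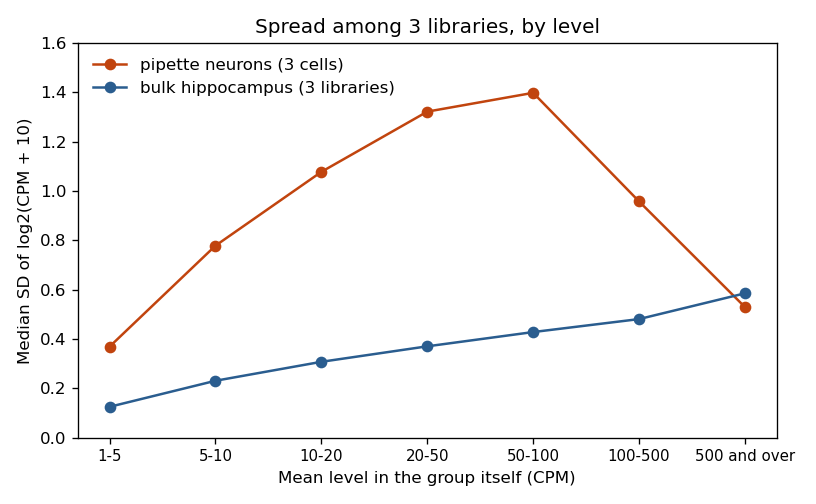
Median over features of the SD of log2(CPM + 10) among the 3 pipette neurons and among the 3 bulk libraries (vertical axis), for classes of mean level in the same group (horizontal axis, CPM). The neuron line peaks at 1.40 at 50 to 100 CPM and lies at 0.53 in the highest class, where the bulk line lies at 0.59.

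Some features were seen strongly in a single cell. In neuron 1, 124 features were at 50 CPM or more and below 1 CPM in both other neurons, or 3.89% of the 3191 features at that level. In neuron 2 there were 175, or 5.47%, and in neuron 3 there were 140, or 4.28%. In bulk tissue the same count was 0, 2 and 0.

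Most of these private features were present in the tissue. Of them, 89.5% in neuron 1, 90.3% in neuron 2 and 95% in neuron 3 were at 1 CPM or more in every bulk library. Such presence was less common among them than among the 1556 features that reached 50 CPM in each neuron. Only 0.129% of those 1556 fell below 1 CPM in any bulk library. The 1556 also stood higher in bulk tissue, with a median of 185 CPM. The median bulk levels of the private features were 14.3, 11.96 and 18.2 CPM for neurons 1, 2 and 3. The strongest of them, singled out after its values were seen, had 724 CPM (5669 reads) in neuron 1 and no read in neurons 2 and 3, against 6.18, 21.2 and 19.5 CPM in the bulk libraries. Among the 5 TIVA neurons of tissue its highest value was 0.0404 CPM.

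By correlation, a neuron was about as much like bulk tissue as like the other neurons. The neurons varied more among themselves than the bulk libraries did, so these 2 references are not on an equal footing. Pearson's r of log2(CPM + 10) across the measured features was 0.582 to 0.655 between neurons and 0.868 to 0.945 between bulk libraries. Against the mean of the other 2 neurons, r was 0.664, 0.639 and 0.692 for neurons 1, 2 and 3. Against means of 2 bulk libraries it was 0.668 to 0.674, 0.646 to 0.648 and 0.719 to 0.726. Averaging raised the likeness to bulk tissue: r with the mean of all bulk libraries was 0.652 to 0.729 for single neurons, 0.711 to 0.747 for means of 2 neurons and 0.756 for the mean of all 3. The points of these correlations are features of 1 library, which are not independent replicates and share its amplification and depth.

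Features that join several isoform identifiers were set apart as a property that the choice of libraries did not use. The median difference was −0.44 for the 3131 measured features with a single identifier, −0.56 for 4307 with 2 to 3, −0.61 for 2427 with 4 to 9 and −0.73 for 102 with 10 or more. The difference between 4 to 9 identifiers and a single one was −0.18, −0.16 and −0.19 in neurons 1, 2 and 3. For the mean of all neurons it was −0.17, and −0.10 without bulk library 3. The small class of 10 or more did not keep the order in every cell: its median was −0.65 in neuron 1, above the −0.68 of features with a single identifier there, and it was the lowest class in neurons 2 and 3. Calls did not follow this order. Those in the lower direction made up 4.47% of features with a single identifier, 4.34% with 2 to 3, 6.10% with 4 to 9 and 4.90% with 10 or more, beside 4.82% of all measured features. Those in the higher direction made up 0.798%, 0.627%, 0.494% and 0.980% of these classes, beside 0.652% of all. Features with 100 CPM or more on average kept the order, with medians of 0.17, 0.07, −0.02 and −0.34 over the 4 classes. The length of the features was not used here, and its part in this order was not tested.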

How the data were processed

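The authors deposited whole-number read counts per feature, 1 table per library. The submitters' processing notes name CASAVA 1.8.1, HTSeq and genome build mm9. No source used here gives the aligner, how overlaps were resolved or whether strand was used, so overlapping, antisense and near-identical features could not be told apart. The 5 HTSeq summary lines were left out of library totals, and 11967 of the 28661 features join several identifiers.

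Counts were scaled to CPM over assigned reads and thinned once without replacement. Python 3.11.15, numpy 2.4.6 and pandas 2.3.3 were used, with edgeR 4.0.16 (TMM) and DESeq2 1.42.0 (size factors) for alternative scalings only. The calculation was tested on simulated data with large changes in abundant features and the same added noise in both groups. That test does not give the rate of false calls at the spread of these neurons. Named features averaged at least 20 CPM and had at least 10 reads in all libraries of whichever group was higher. Their groups did not overlap, and the first 2 by difference were taken per direction. Comparisons, lists and rules were chosen with earlier results of these data known. Replicate numbers follow record order and pair nothing. Counts of libraries of a group differed far beyond sampling noise (chi-square per degree of freedom 204 or more), so each was counted as a library of its own. Summed reads are given beside the means for counting error only. Intervals cover counting error only.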

Additional observations from a re-analysis of the deposited data

Results flagged for a closer look

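The share of features at 500 CPM or more in bulk tissue that a TIVA neuron of tissue held was 100% in TIVA neuron 2. It was 99.6% in each of the other TIVA neurons. This gap was flagged, but the values lie at the ceiling of a class of 227 features and all but the flagged one tie. It was the only such flag in 14 sets of TIVA values looked at. Chance flags about 1 in 20 sets where values do not tie and sets are independent, which does not hold here. No conclusion is drawn from the flag. Groups of 3 libraries were not examined in this way.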

How the results depend on the processing

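Features called higher and lower in neurons numbered 184 and 265 with TMM factors, 223 and 238 with DESeq2 size factors, 174 and 170 from the median of all features, 102 and 2292 with 1 CPM added, and 329 and 2250 at a 2-fold difference. With the 50 most abundant features left out, 742 were lower. The median difference was −0.15 with TMM, −0.074 with DESeq2, −1.19 with 1 CPM added, −0.30 for summed counts, −0.12 with no filter and −0.36 with a filter at 20 CPM. Leaving out each library in turn gave 57 to 138 features called higher and 423 to 812 called lower. This eases the condition of no overlap and also changes the group means. Median detection differed by −5968 at 10 reads, −9003 without thinning and −3379 at 10 CPM. Features below 1 CPM in a neuron made up a median of 14.3% (3.02% in all neurons) of those at 20 CPM or more in bulk tissue. Of those at 50 CPM or more, a median of 1.44% had 0 reads in a neuron, against 4.86% below 1 CPM. With each library left out, a median of 3.77% to 8.41% of those at 50 CPM or more were below 1 CPM in a neuron. The share held by all neurons at 20 to 50 CPM in bulk tissue was then 67.6% to 78.6%. The difference in the share of the 50 most abundant features ran from −6.35 to 3.84 percentage points, with −4.08 without bulk library 2. The median SD was 1.56 in neurons and 0.49 in bulk tissue with 1 CPM added, and 0.58 to 0.86 in neurons and 0.21 to 0.36 in bulk tissue with each library left out. The difference between 4 to 9 identifiers and a single one was −0.26 with 1 CPM added, −0.15 for summed counts, −0.19 at 20 CPM and −0.23 to −0.10 with each library left out. The median correlation of a neuron with a bulk library was 0.598 with 1 CPM added. The cause of these shifts was not tested. With overlap allowed and all libraries kept, 68 were higher and 529 lower. The 4 named features kept their direction under all alternatives run on them. No paired analysis was possible because the replicate numbers follow record order and no test was made. Depth limits low features: 3 reads are 0.258 to 0.452 CPM in neurons and 0.0508 to 0.112 CPM in bulk tissue.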

Other observations

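Cultured hippocampal neurons drawn by pipette held more of the low tissue features than pipette neurons from tissue did. Of the features at 1 to 5 CPM in bulk tissue, a pipette neuron from tissue held a median of 24.5% (22.3% to 27.7%, n = 3) at the common depth, and a cultured pipette neuron 87.0% (84.1% to 94.4%, n = 3). At 100 to 500 CPM the medians were 98.7% and 99.9%. Reads outside features made up 15.8% to 30.3% of all counted reads in neurons from tissue and 31.5% to 75.3% in cultured neurons, and their part in this result was not tested.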
